A study of Prunus persica with 84 samples.

Results

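The peach genes PRUPE_DAM4, PRUPE_DAM5 and PRUPE_DAM6, hereafter DAM4, DAM5 and DAM6, belong to the dormancy-associated MADS-box family. They were taken by their row names in the count table, 3 of 26879 genes, and followed through all 28 combinations of genotype and time. All 3 passed the filter on low counts, which 21168 genes passed. Floral buds on cut shoots of Prunus persica were profiled by messenger RNA sequencing in 2 genotypes, KV021779 (LP in the titles of the samples) and John Boy (JB). Every shoot stood in water at 4 °C and buds were taken at 0, 100, 200, 400, 600, 800 and 1000 h. The shoots then moved to 22 °C, where LP buds were taken at 1, 4, 8, 12, 16, 20, 24 and 28 d and JB buds at 1, 4, 8, 12, 16 and 20 d. The last time in each genotype was the start of its bloom. Each combination had 3 libraries, 45 of LP and 39 of JB. Each side of the comparison is a single genotype, and no shoots were left unchilled, so time in the cold and time since cutting cannot be told apart. The labels do not say whether replicates came from different trees, so p-values here rest on the spread between samples that may be technical repeats.

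DAM genes code for MADS-box transcription factors related to Short Vegetative Phase (SVP) of Arabidopsis, and in peach they lie next to each other as tandem copies. Peach trees of the evergrowing mutant, which lack a stretch of this cluster, do not stop growing in autumn. In buds of Prunus species the DAM factors are known as repressors of growth, and their transcripts decline as chilling is met. DAM5 and DAM6 are best known for that decline in winter, and DAM4 has been described more in the months when shoots stop growing and set buds. The tandem copies resemble each other, and the counts do not show how reads that fit several copies were assigned, so the values of single members carry that uncertainty.

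The libraries held 8823829 to 16989188 counts in LP and 8021919 to 26346177 in JB. Levels are CPM (counts scaled to a common library total, after TMM) and are not scaled by gene length, so levels are compared between samples and not between genes. Changes are log2 fold changes with their SE from edgeR's quasi-likelihood test, and a call is a Benjamini-Hochberg adjusted p under 0.05 over all tested genes. Replicate libraries correlated at 0.966 to 0.995 across genes, with JB 12 d replicate 3 and LP 28 d replicate 3 lowest, and no replicate pair agreed within sampling noise. Floral and leaf marker genes were not checked here, since the table pairs few identifiers with names. In whole buds, fewer cells that express a DAM gene and less DAM RNA per cell cannot be told apart.

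DAM4 rose at the start of chilling and then fell in both genotypes. In LP its 3 libraries had 636, 684 and 715 CPM at 0 h, 872, 840 and 744 CPM at 100 h, and 902, 830 and 831 CPM at 200 h. In JB they had 525, 532 and 465 CPM at 0 h, 594, 663 and 643 CPM at 100 h, 667, 609 and 582 CPM at 200 h, and 630, 635 and 608 CPM at 400 h. In each genotype all libraries at 100 and 200 h stood above all libraries at 0 h. The rise to 100 h was 0.27 ± 0.09 in LP (adjusted p = 0.00878) and 0.32 ± 0.09 in JB (adjusted p = 0.00203) on the log2 scale. DAM4 was the 1 member of 3 called higher there, where 23.9% of all tested genes were called higher in LP and 23.7% in JB. It was also called higher at 200 h in both, as were 23.3% of tested genes in LP and 27.6% in JB. By 400 h DAM4 in LP was back at 651, 709 and 676 CPM, a log2 change of 0.00 ± 0.09 against 0 h. In JB it was still 0.30 ± 0.09 above its level at 0 h (adjusted p = 0.00373), where 24% of tested genes were called higher. The highest mean stood at 200 h in LP, with 854 ± 41 CPM, and at 100 h in JB, with 633 ± 36 CPM (SD, n = 3). In JB the means at 100, 200 and 400 h differed by less than their spread, and the steps between them were not called. The rise of PRUPE_DAM4 in LP lost its call without replicate 1 of every group, at 100 h (0.18, adjusted p = 0.194) and at 200 h (0.26, adjusted p = 0.0663), and at 100 h also without replicate 2 (0.26, adjusted p = 0.0911). In JB the rise to 200 h lost it without replicate 1 (0.25, adjusted p = 0.0634).

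From 400 h on DAM4 fell at each of the next 3 steps in both genotypes, and all of these steps were called. In LP the mean was 462 ± 27 CPM at 600 h, 279 ± 37 CPM at 800 h and 186 ± 10.5 CPM at 1000 h (SD, n = 3). In JB it was 334 ± 30 CPM at 600 h, 204 ± 8.1 CPM at 800 h and 121 ± 19 CPM at 1000 h. At the first of these steps 2.19% of tested genes were called lower in LP and 13.1% in JB, at the second 3.09% in LP and 3.85% in JB, and at the last 2.42% were called lower in LP and 2.34% in JB. Fitted over 400 to 1000 h, DAM4 declined by 0.32 ± 0.01 log2 units per 100 h in LP and by 0.39 ± 0.01 in JB, which corresponds to a halving every 316 h in LP and every 256 h in JB. All 3 members had a slope called below 0 in both genotypes, as had 11% of tested genes in LP and 19.2% in JB. In LP the PRUPE_DAM6 slope lost its call without replicate 2 (-0.12, adjusted p = 0.094) or 3 (-0.10, adjusted p = 0.0508) of every group.

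**Figure D1:**
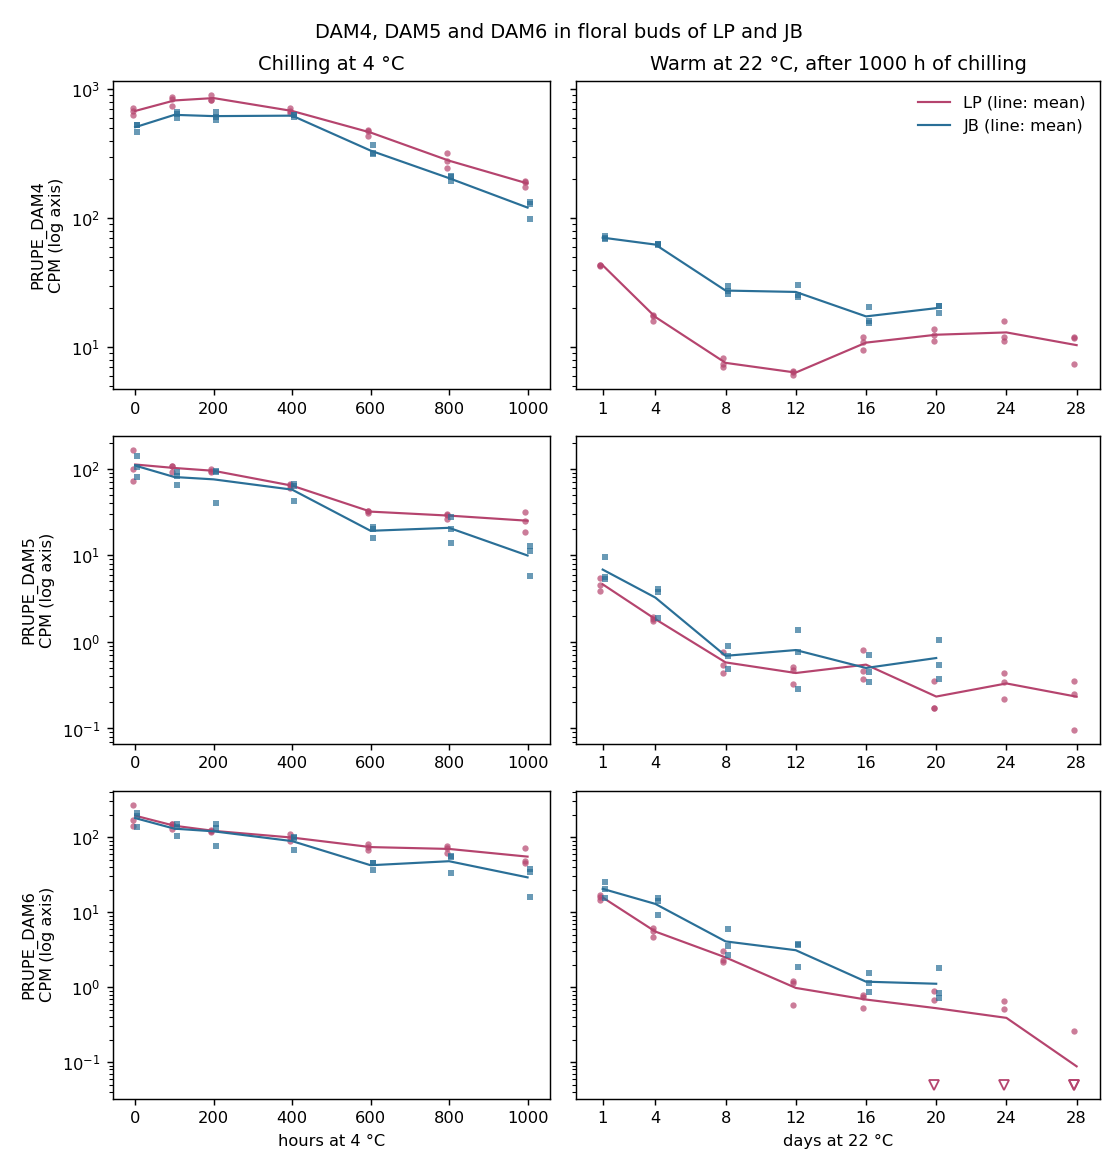
Levels of DAM4 (top), DAM5 (middle) and DAM6 (bottom) in CPM on log axes, by hours at 4 °C (left) and by days at 22 °C after 1000 h of chilling (right), with a point per library (LP circles, JB squares) and lines through the group means. Open triangles at the lower edge mark libraries with no count. DAM4 lies higher in LP than in JB during chilling and lower at every shared warm time, and it climbs again in LP after 12 d.

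DAM5 and DAM6 had their highest group means before chilling and had no called rise at any chilling step. DAM5 in LP had 73.3, 166 and 98.6 CPM at 0 h, and in JB 143, 105 and 80.6 CPM. DAM6 in LP had 142, 270 and 170 CPM at 0 h, and in JB 209, 193 and 139 CPM. The libraries of the genotypes overlapped for both genes, and replicate 2 of LP was the highest LP library for both. Without replicate 2 of every group the highest DAM5 mean in LP stood at 100 h, with 99.8 CPM. The DAM5 changes in LP against 0 h were then 0.22 at 100 h and 0.12 at 200 h, neither of them called. At 400 h, DAM5 in LP was lower than at 0 h by a log2 change of -0.80 ± 0.20 (adjusted p = 0.000622) and in JB by -0.94 ± 0.20 (adjusted p = 7.75e-05). DAM6 changed by -0.96 ± 0.20 in LP (adjusted p = 4.19e-05) and by -1.03 ± 0.20 in JB (adjusted p = 1.73e-05). So 2 of the 3 members were called lower at 400 h, where 25.9% of tested genes were in LP and 27% in JB, while DAM4 was not. In LP the calls of PRUPE_DAM5 and PRUPE_DAM6 at 400 h rested on replicate 2, since without it the values were -0.46 (adjusted p = 0.163) and -0.64 (adjusted p = 0.0606). In JB the PRUPE_DAM5 call was lost without replicate 1 (-0.50, adjusted p = 0.0826).

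The decline of DAM5 and DAM6 was uneven. Between 400 and 600 h, DAM5 fell in both genotypes, with log2 changes of -1.0 ± 0.21 in LP (adjusted p = 0.00188) and -1.55 ± 0.22 in JB (adjusted p = 6.27e-08). DAM6 had -0.42 ± 0.21 in LP (adjusted p = 0.277) and fell in JB, with -1.05 ± 0.21 (adjusted p = 8.76e-05). From 600 to 800 h neither gene changed by more than its error, with -0.15 ± 0.23 in LP and 0.06 ± 0.24 in JB for DAM5, and -0.08 ± 0.21 in LP and 0.16 ± 0.22 in JB for DAM6, while DAM4 fell, with -0.73 ± 0.09 in LP and -0.71 ± 0.09 in JB. From 800 to 1000 h DAM5 had -0.20 ± 0.24 in LP (adjusted p = 0.716) and fell in JB, with -1.04 ± 0.28 (adjusted p = 0.019). DAM4 had 4 of its 6 chilling steps called as falls in LP, the earliest being 200 to 400 h, where 7.74% of tested genes were called lower, and 3 of 6 in JB, DAM5 had 1 in LP and 2 in JB, and DAM6 had 0 in LP and 2 in JB by edgeR's quasi-likelihood test. At an unadjusted p under 0.05, DAM6 in LP had 2 such steps, to 100 h (unadjusted p = 0.0309) and to 600 h (unadjusted p = 0.0461). One of the JB falls of DAM6 was the step to 100 h, with -0.48 ± 0.20 (adjusted p = 0.0431), where 25.1% of tested genes were called lower. That PRUPE_DAM6 call was lost without replicate 2 (-0.47, adjusted p = 0.191) or 3 (-0.49, adjusted p = 0.0695) of every group and with DESeq2 (-0.46, adjusted p = 0.176). Over 400 to 1000 h DAM5 declined by 0.21 ± 0.04 log2 units per 100 h in LP and by 0.38 ± 0.04 in JB, and DAM6 by 0.13 ± 0.03 in LP and by 0.23 ± 0.04 in JB. Fitted from 600 h on, the slopes of PRUPE_DAM5 and PRUPE_DAM6 in LP were -0.09 (adjusted p = 0.379) and -0.11 (adjusted p = 0.214), and that of PRUPE_DAM6 in JB was -0.14 (adjusted p = 0.117).

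DAM5 and DAM6 reached 50% of their highest mean earlier than DAM4 did. By log-linear interpolation between sampled times, DAM6 crossed 50% at 414 h in LP and 391 h in JB, DAM5 at 438 h in LP and 410 h in JB, and DAM4 at 631 h in LP and 622 h in JB. Over fits that left out 1 replicate number in turn, these times ran from 322 to 568 h in LP and 327 to 442 h in JB for DAM6, from 380 to 466 h in LP and 345 to 455 h in JB for DAM5, and from 616 to 653 h in LP and 608 to 629 h in JB for DAM4. DAM5 and DAM6 thus do not differ from each other beyond that spread, and DAM4 was later than both in every such fit. At 1000 h, DAM4 stood at 21.8% of its highest mean in LP and 19.1% in JB, DAM5 at 22.4% in LP and 9.13% in JB, and DAM6 at 28.4% in LP and 16.2% in JB. The share was larger in LP than in JB for each member, except that without replicate 1 of every group DAM6 stood at 21.2% in LP and 21.5% in JB.

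**Figure D2:**
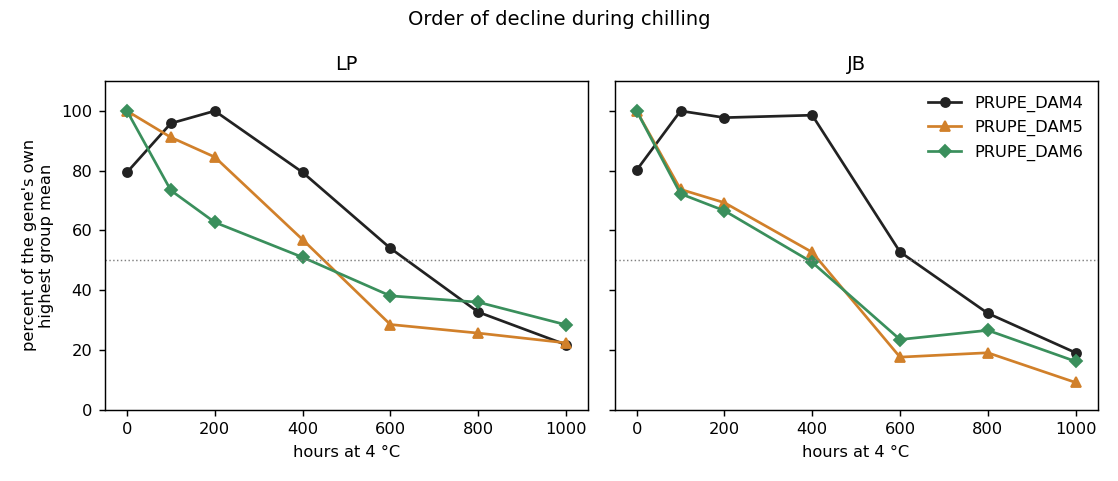
Group means of DAM4, DAM5 and DAM6 as percent of each gene's own highest group mean, by hours at 4 °C, in LP (left) and JB (right), with the dotted line at 50%. DAM5 and DAM6 cross the line near 400 h in both genotypes and DAM4 crosses it after 600 h.

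Ratios between members within a library, where scaling plays no part, also changed over chilling for the pairs with DAM5. The log2 ratio of DAM5 to DAM6 changed by -0.32 in LP and -0.80 in JB between 0 and 1000 h, a mean of -0.56 (exact permutation test within genotype, two-sided, p = 0.01, adjusted p = 0.03 over the 3 ratios). The ratio of DAM5 to DAM4 changed by -0.24 in LP and -1.41 in JB, a mean of -0.83 (exact permutation p = 0.03, adjusted p = 0.045). The ratio of DAM6 to DAM4 changed by 0.075 in LP and -0.61 in JB, a mean of -0.27 (exact permutation p = 0.31). Without any 1 replicate number the smallest p the design allows is 0.0556, so the calls could not be made there. The DAM5 to DAM4 change in LP alone turned to 0.28 without replicate 2.

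Over chilling, LP had more of all 3 transcripts than JB. The mean difference over the 7 chilling times was 0.42 ± 0.03 for DAM4 (adjusted p = 6.09e-18), 0.50 ± 0.08 for DAM5 (adjusted p = 3.62e-07) and 0.39 ± 0.08 for DAM6 (adjusted p = 1.56e-05). All 3 members were called higher in LP, as were 37% of tested genes. The members reached this difference on different courses. For DAM4, the LP libraries lay above the JB libraries without overlap at 7 of 7 chilling times, and the difference was called at 6 of them. The exception was 400 h, with 651, 709 and 676 CPM in LP and 630, 635 and 608 CPM in JB, a difference of 0.12 ± 0.09 (adjusted p = 0.286). At 100 h the PRUPE_DAM4 call needed replicate 1 (0.26 without it in every group, adjusted p = 0.0673). Of all tested genes, 22% were called higher in LP at 0 h, 21.8% after 100 h and 25.4% after 200 h. The share was 22.5% at 400 h, then 24.7% at 600 h, with 20.3% at 800 h and again 24.7% at the end. These are shares of calls, and the share of all genes whose libraries did not overlap was not computed.

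For DAM5 and DAM6 the genotypes overlapped at 0, 100, 200 and 400 h and differed late in chilling. DAM5 at 600 h had 30.5, 33.1 and 32.7 CPM in LP and 20.4, 21.6 and 15.8 CPM in JB, a difference of 0.72 ± 0.23 (adjusted p = 0.00632). At 1000 h it had 32.0, 18.7 and 24.8 CPM in LP and 5.74, 13 and 11.2 CPM in JB. DAM6 at 600 h had 68.5, 73.1 and 80.3 CPM in LP and 45.0, 45.0 and 37.2 CPM in JB, a difference of 0.80 ± 0.21 (adjusted p = 0.00124). At 1000 h it had 72.4, 47.8 and 45.4 CPM in LP and 16.2, 37.4 and 34.0 CPM in JB. The libraries did not overlap at any of these times. DAM5 was called higher in LP at 2 of 7 chilling times and DAM6 at 3 of 7, the third being 800 h (0.56 ± 0.22, adjusted p = 0.0336). Without replicate 1 of every group the PRUPE_DAM6 difference was 0.29 at 800 h (adjusted p = 0.303) and 0.35 at 1000 h (adjusted p = 0.223), and at 800 h the call was also lost without replicate 3 (0.60, adjusted p = 0.0516) and with DESeq2 (0.55, adjusted p = 0.117). JB 1000 h replicate 1 was the lowest of its group for all 3 members. Set against 0 h, the change to 1000 h was less negative in LP than in JB by 1.33 ± 0.34 for DAM5 (adjusted p = 0.00161) and by 0.82 ± 0.31 for DAM6 (adjusted p = 0.0319), 2 members of 3, where 17.2% of tested genes changed more positively in LP. Without replicate 1 of every group these were 0.36 (adjusted p = 0.609) for PRUPE_DAM5 and -0.03 for PRUPE_DAM6.

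The decline between 400 and 1000 h was slower in LP for DAM4 by 0.07 ± 0.02 log2 units per 100 h (adjusted p = 0.00567) and for DAM5 by 0.17 ± 0.05 (adjusted p = 0.0225). For DAM6 the difference was 0.10 ± 0.05 (adjusted p = 0.146). Over 200 to 1000 h the PRUPE_DAM4 difference was 0.032 (adjusted p = 0.0721), and over 600 to 1000 h that of PRUPE_DAM4 was 0.040 (adjusted p = 0.645) and that of PRUPE_DAM5 0.16 (adjusted p = 0.443). These 2 of 3 members stand beside 9.79% of tested genes whose slope was called more positive in LP. Without JB 1000 h replicate 1 both calls were lost, at 0.06 (adjusted p = 0.0551) for PRUPE_DAM4 and 0.12 (adjusted p = 0.144) for PRUPE_DAM5. Without replicate 1 of every group they were 0.05 (adjusted p = 0.259) and 0.11 (adjusted p = 0.355). The PRUPE_DAM5 call was also lost without JB 400 h replicate 3 (0.15, adjusted p = 0.0612) and without LP 1000 h replicate 1 (0.14, adjusted p = 0.0866).

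**Figure D3:**
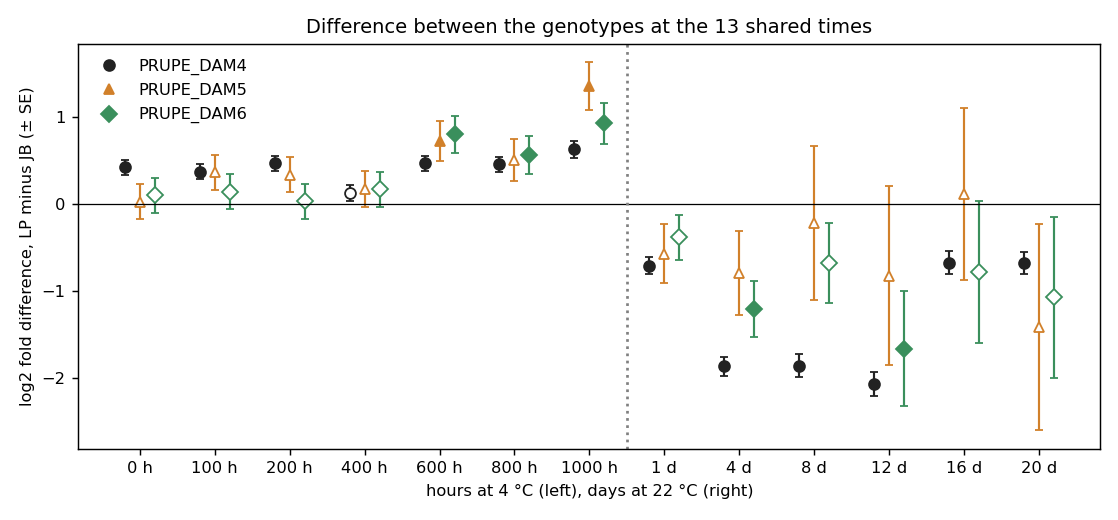
Difference between the genotypes, LP minus JB, as log2 fold difference with its SE (bars), at the 13 shared times, with hours at 4 °C to the left of the dotted line and days at 22 °C to the right. Filled symbols mark an adjusted p under 0.05. DAM4 is higher in LP at each chilling time, with an open symbol at 400 h, and lower in LP at each warm time.

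On the first day at 22 °C the order of the genotypes turned round for DAM4. DAM4 had 43.0, 43.6 and 43.1 CPM in LP at 1 d, against 174, 190 and 194 CPM at 1000 h. In JB it had 70.3, 72.8 and 69.0 CPM at 1 d, against 98.9, 129 and 135 CPM at 1000 h. No library at 1 d overlapped with those at 1000 h, and LP now lay below JB without overlap. DAM4 fell in both genotypes, with a log2 change of -2.11 ± 0.10 in LP (adjusted p = 4.72e-30), a 4.31-fold fall, and of -0.77 ± 0.10 in JB (adjusted p = 1.30e-10), a 1.71-fold fall. The change differed between LP and JB by -1.33 ± 0.14 (adjusted p = 6.64e-13).

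DAM5 and DAM6 also fell in LP and changed more negatively there than in JB, but LP and JB were not called different at 1 d. DAM5 had 3.86, 4.55 and 5.50 CPM in LP at 1 d, against 32.0, 18.7 and 24.8 CPM at 1000 h, a log2 change of -2.44 ± 0.29 (adjusted p = 1.64e-11). In JB it had 5.36, 9.65 and 5.58 CPM at 1 d, against 5.74, 13 and 11.2 CPM at 1000 h, a change of -0.51 ± 0.32 (adjusted p = 0.165). The JB libraries of the 2 times overlapped, and those of LP did not. DAM6 had 14.6, 15.9 and 16.7 CPM in LP at 1 d, a change of -1.80 ± 0.24 (adjusted p = 6.71e-10), and 15.4, 25.5 and 20.7 CPM in JB, a change of -0.49 ± 0.25 (adjusted p = 0.0823). The difference between LP and JB in this change was -1.92 ± 0.44 for DAM5 (adjusted p = 0.000262) and -1.31 ± 0.35 for DAM6 (adjusted p = 0.0016). It includes the gap at 1000 h, where LP minus JB was 1.35 ± 0.27 for DAM5 and 0.92 ± 0.23 for DAM6. At 1 d the genotypes overlapped, with LP minus JB of -0.57 ± 0.34 for DAM5 (adjusted p = 0.185) and -0.39 ± 0.26 for DAM6 (adjusted p = 0.241). All 3 members fell in LP, where 31.5% of tested genes were called lower, and 1 of 3 in JB, where 28.6% were. All 3 changed more negatively in LP than in JB, as 21.6% of tested genes did. The smaller JB changes rested on single libraries, since without JB 1000 h replicate 1 the change in JB was called for PRUPE_DAM5 (-0.80, adjusted p = 0.0375) and PRUPE_DAM6 (-0.79, adjusted p = 0.0067), and likewise without JB 1 d replicate 2 (-0.85, adjusted p = 0.0472, and -0.68, adjusted p = 0.0369). The difference between LP and JB was called for all 3 members in every fit without a library or a replicate number, with log2 values from -1.42 to -1.21 for DAM4, from -2.28 to -1.45 for DAM5 and from -1.60 to -0.85 for DAM6.

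From 1 to 4 d DAM4 fell in LP to 17.8, 16.1 and 17.6 CPM at 4 d, a change of -1.33 ± 0.11 (adjusted p = 1.35e-16). In JB it had 62.8, 63.1 and 61.6 CPM at 4 d, a change of -0.18 ± 0.10 (adjusted p = 0.159), which was called for PRUPE_DAM4 in a fit of only the groups compared (-0.19, adjusted p = 0.0165). The gap between LP and JB widened to a log2 difference of -1.87 ± 0.11 at 4 d (adjusted p = 1.9e-24), against -0.71 ± 0.10 at 1 d. DAM5 and DAM6 fell from 1 to 4 d in both genotypes, DAM5 with -1.33 ± 0.43 in LP (adjusted p = 0.0132) and -1.11 ± 0.38 in JB (adjusted p = 0.0183), and DAM6 with -1.51 ± 0.30 in LP (adjusted p = 5.87e-05) and -0.68 ± 0.27 in JB (adjusted p = 0.0428). The 3 of 3 members called lower in LP and 2 of 3 in JB at this step stand beside 13.5% of tested genes in LP and 17.2% in JB. The change differed between LP and JB for DAM4, by -1.16 ± 0.15 (adjusted p = 2.22e-09), where 9.6% of tested genes were called more negative in LP. For DAM5 this difference was -0.22 ± 0.59 (adjusted p = 0.866) and for DAM6 -0.82 ± 0.41 (adjusted p = 0.147). The PRUPE_DAM6 difference was called in a fit of only the groups compared (-0.82, adjusted p = 0.00105), and the fall of PRUPE_DAM6 in JB was lost with DESeq2 (-0.65, adjusted p = 0.0717) and without replicate 2 of every group (-0.28, adjusted p = 0.647). Leaving out replicate numbers likewise ended the PRUPE_DAM5 falls, in LP without replicate 2 (-1.35, adjusted p = 0.0718) or 3 (-1.24, adjusted p = 0.068) and in JB without replicate 2 (-0.47, adjusted p = 0.532). At the step to 8 d, where 12.6% of tested genes were called lower in LP and 13.4% in JB, DAM4 fell in both genotypes, with -1.18 ± 0.14 in LP and -1.19 ± 0.10 in JB, and the difference between these changes was 0.01 ± 0.19. DAM5 had -1.64 ± 0.72 in LP (adjusted p = 0.0888) and fell in JB, with -2.21 ± 0.59 (adjusted p = 0.00267), and DAM6 fell in both, with -1.14 ± 0.44 in LP (adjusted p = 0.0468) and -1.67 ± 0.33 in JB (adjusted p = 5.83e-05). The PRUPE_DAM6 call in LP was lost without replicate 2 (-1.02, adjusted p = 0.25) or 3 (-1.23, adjusted p = 0.122) of every group, and with DESeq2 the PRUPE_DAM5 change in LP was called (-1.65, adjusted p = 0.00175).

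Between the end of chilling, at 1000 h, and 8 d at 22 °C, all 3 members declined in both genotypes. The slope of DAM4 was -0.51 ± 0.01 log2 units per day in LP and -0.24 ± 0.01 in JB, a halving every 1.96 d in LP and every 4.25 d in JB. For DAM5 it was -0.59 ± 0.06 in LP and -0.47 ± 0.06 in JB, a halving every 1.68 d in LP and every 2.12 d in JB. For DAM6 it was -0.50 ± 0.04 in LP and -0.34 ± 0.04 in JB, a halving every 1.98 d in LP and every 2.91 d in JB. These halving times are averages over the window, since the changes at single steps given above were uneven. The 3 members of 3 called below 0 stand beside 29.5% of tested genes in LP and 28.5% in JB. The slope was steeper in LP for DAM4 by -0.28 ± 0.02 (adjusted p = 6.32e-20) and for DAM6 by -0.16 ± 0.06 (adjusted p = 0.036), and DAM5 had -0.12 ± 0.11 (adjusted p = 0.45). Of tested genes 16.7% had a slope called more negative in LP. The PRUPE_DAM6 call was lost without replicate 1 (-0.05, adjusted p = 0.658) or replicate 2 (-0.20, adjusted p = 0.0578) of every group. It was also lost without any 1 of 6 libraries, namely JB 8 d replicate 1 (-0.12, adjusted p = 0.218), JB 1000 h replicate 1, JB 1 d replicate 1, LP 1000 h replicate 1, and LP 8 d replicates 1 and 2 (adjusted p from 0.0511 to 0.086 in those 5). These halving times are shorter than those fitted over 400 to 1000 h at 4 °C for each member in each genotype. At 4 °C they were 316 h in LP and 256 h in JB for DAM4, 476 h in LP and 266 h in JB for DAM5, and 761 h in LP and 429 h in JB for DAM6. No buds were taken at 4 °C after 1000 h, so temperature and time since cutting cannot be told apart in this comparison.

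Late in warming DAM4 rose again in LP, while in JB it ended lower than at 8 d. In LP it had 7.01, 7.46 and 8.22 CPM at 8 d, 6.55, 6.43 and 6.10 CPM at 12 d, 9.54, 12.0 and 11.0 CPM at 16 d, and 13.9, 11.1 and 12.5 CPM at 20 d. All LP libraries from 16 d on except replicate 3 at 28 d stood above all of those at 8 and 12 d. The step from 12 to 16 d was 0.77 ± 0.15 (adjusted p = 3.97e-05), and DAM4 was the 1 member of 3 called higher, where 15.7% of tested genes were. The mean at 24 d was 13 ± 2.5 CPM and at 28 d 10.4 ± 2.6 CPM (SD, n = 3), with 11.9, 11.8 and 7.42 CPM in the 28 d libraries. In JB DAM4 had 29.6, 25.7 and 27.2 CPM at 8 d, 24.6, 25.6 and 30.3 CPM at 12 d, 15.9, 15.5 and 20.6 CPM at 16 d, and 20.8, 18.6 and 20.9 CPM at 20 d. All JB libraries at 16 and 20 d stood below those at 8 and 12 d. The JB mean was lowest at 16 d, and the step from there to 20 d was 0.21 ± 0.12 (adjusted p = 0.129).

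From 8 to 20 d the change of DAM4 was 0.72 ± 0.14 in LP (adjusted p = 2.63e-05) and -0.45 ± 0.11 in JB (adjusted p = 0.000293), and the difference between these changes was 1.18 ± 0.18 (adjusted p = 7.4e-08). Of tested genes 22% were called higher in LP and 38.4% lower in JB, and 32.3% changed more positively in LP. These comparisons were chosen after the values were seen, and 20 d was the start of bloom in JB but not in LP. In fits without 1 replicate number the difference ran from 1.00 to 1.24 and stayed called. DAM4 remained lower in LP than in JB at 20 d, with 13.9, 11.1 and 12.5 CPM in LP and 20.8, 18.6 and 20.9 CPM in JB, a difference of -0.68 ± 0.13 (adjusted p = 2.43e-06). At the start of bloom, 28 d in LP and 20 d in JB, DAM4 was lower in LP, with a log2 difference of -0.94 ± 0.13 (adjusted p = 3.72e-09), as were 32.1% of tested genes, and without LP 28 d replicate 3 the PRUPE_DAM4 difference was -0.72 (adjusted p = 6.88e-06). PRUPE_DAM6 was also called lower in LP there, on 0, 3 and 0 counts in LP. Its call was lost in 3 of 4 fits that left out a replicate number or LP 28 d replicate 3. PRUPE_DAM5 was not called. At the 6 shared warm times the LP libraries of DAM4 lay below those of JB without overlap, and the share of all genes without overlap was not computed. DAM4 was called lower in LP at all 6, where 21.6% of tested genes were at 1 d, 26.1% at 4 d and 19.6% at 8 d. The share called lower was 28.8% at 12 d, 32.7% at 16 d and 34.9% at 20 d. Over these times the mean difference for DAM4 was -1.31 ± 0.05 (adjusted p = 2.93e-35). For DAM6 the mean was -0.97 ± 0.26 (adjusted p = 0.000634) and for DAM5 -0.62 ± 0.36 (adjusted p = 0.12). So 2 of 3 members were called lower in LP, as 32.5% of tested genes were.

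**Figure D4:**
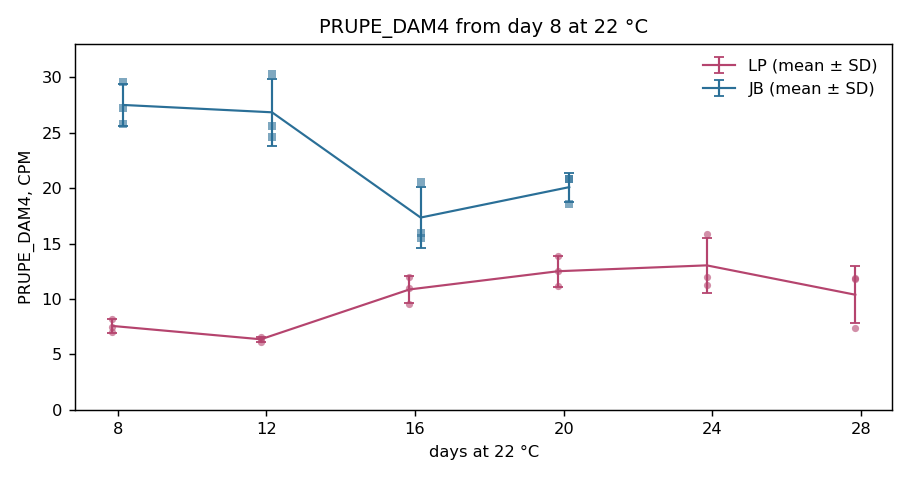
DAM4 in CPM from 8 d at 22 °C on, with a point per library and mean ± SD (n = 3) for LP and JB. LP is lowest at 12 d, at 6.36 CPM, and near 13 CPM at 24 d. JB is at 27.5 CPM at 8 d, lowest at 16 d, at 17.3 CPM, and at 20.1 CPM at 20 d.

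DAM5 and DAM6 had no called rise at any warm step and approached the limit of detection. DAM5 in LP had 9, 6 and 5 counts at 8 d and 3, 4 and 1 counts at 28 d, and in JB 12, 10 and 8 counts at 8 d and 4, 6 and 10 counts at 20 d. DAM6 in LP had 27, 24 and 35 counts at 8 d, 0, 8 and 10 counts at 20 d and 0, 3 and 0 counts at 28 d. In JB DAM6 had 81, 51 and 44 counts at 8 d and 19, 8 and 8 counts at 20 d. DAM6 was still falling between 8 and 20 d, with -2.24 ± 0.75 in LP (adjusted p = 0.0123), where 20.7% of tested genes were called lower, and -1.84 ± 0.57 in JB (adjusted p = 0.00299), while DAM5 gave -1.29 ± 1.19 in LP and -0.09 ± 0.88 in JB. At 20 d the means stood at 0.208% of the highest mean in LP and 0.596% in JB for DAM5, at 0.271% in LP and 0.618% in JB for DAM6, and at 1.46% in LP and 3.17% in JB for DAM4. DAM6 was called lower in LP at 4 d (-1.21 ± 0.32, adjusted p = 0.00102) and 12 d (-1.67 ± 0.66, adjusted p = 0.0262), 2 of 6 shared warm times, and DAM5 at 0 of 6 by edgeR's quasi-likelihood test. At 12 d the PRUPE_DAM6 call was lost without JB 12 d replicate 3 (-1.54, adjusted p = 0.077) and without replicates 2 or 3 of every group. The DAM5 count at an unadjusted p under 0.05 was also 0 of 6. DESeq2 called PRUPE_DAM5 lower in LP at 4 d, with -0.84 (adjusted p = 0.0262), and at 20 d, with -1.54 (adjusted p = 0.0282). When edgeR was fitted to only the groups compared, it called 1 d with -0.59 (adjusted p = 0.00229), 4 d with -0.79 (adjusted p = 0.0102) and 20 d with -1.44 (adjusted p = 0.0359).

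DAM5 and DAM6 varied between replicates about alike, and more than DAM4. The biological coefficient of variation, the spread between replicates beyond counting, was 22.0% for DAM5 and 20.9% for DAM6, against 7.38% for DAM4 and trend values for genes of like level of 7.42%, 7.12% and 7.28%. In several chilling groups the libraries high or low for DAM5 were so for DAM6. JB at 200 h had 92.8, 94.4 and 40.0 CPM of DAM5 and 152, 132 and 76.8 CPM of DAM6, with replicate 3 lowest for both, while DAM4 there had 667, 609 and 582 CPM. LP at 0 h, JB at 800 h and JB at 1000 h showed the like, with replicate 2 of LP highest and replicate 1 of each lowest for both genes. LP at 100 h and 400 h did not. At 100 h replicate 1 deviated from its group mean by a log2 value of -0.17 for DAM5 and 0.092 for DAM6, and at 400 h replicate 3 by -0.10 for DAM5 and 0.16 for DAM6. DAM3, a further named DAM gene at low level, was lowest in the same libraries of LP at 0 h and JB at 200, 800 and 1000 h. It had 6.52, 7.33 and 3.19 CPM in JB at 200 h and 4.50, 11.1 and 6.48 CPM in LP at 0 h. At 600 h in JB it had 3.37, 2.32 and 3.08 CPM, where DAM5 had 20.4, 21.6 and 15.8 CPM. The joint deviation of DAM3 with DAM5 and DAM6 was not tested.

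Over the 42 chilling libraries the deviations from the group mean of log2 CPM correlated between DAM5 and DAM6 with Pearson's r of 0.91 and Spearman's rho of 0.84 (permutation within groups, p = 1e-05 for r, the smallest that 100000 permutations can give, and 3e-05 for rho; adjusted over 3 pairs, 3e-05 and 9e-05). Without the 2 libraries farthest from the median r was 0.88. Between DAM4 and DAM6 r was 0.50 and rho 0.40 (permutation p = 0.0149 and 0.0335, adjusted 0.0224 and 0.0503), and between DAM4 and DAM5 r was 0.43 and rho 0.32 (permutation p = 0.0275 and 0.0941, unchanged by adjustment). Without the 2 farthest libraries those r were 0.36 and 0.33. These correlations were chosen after the deviations were seen, and the permutations test only against no correlation. With the mean deviation of DAM5 and DAM6, the median absolute r over 14582 other genes was 0.30. The p-values therefore do not set the pair apart from other genes. The DAM5 and DAM6 deviations also moved against library size, with r of -0.40 and -0.53 to the deviation of the log2 total count, where DAM4 had 0.14. The part of library size or of shared reads in the joint deviation was not tested.

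**Figure D5:**
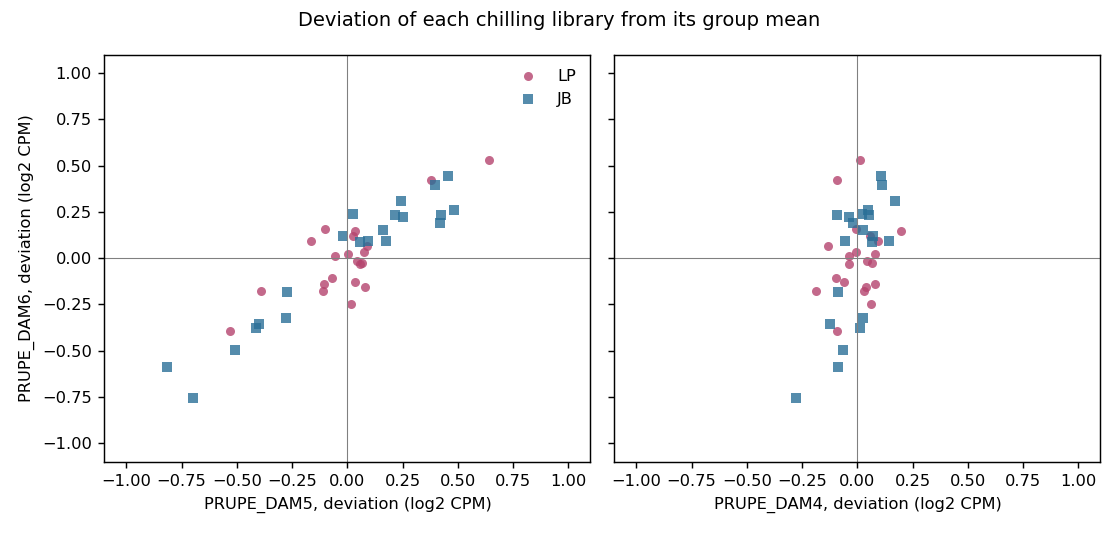
Deviation of each of the 42 chilling libraries from its group mean in log2 CPM, for DAM6 (vertical axis) against DAM5 (left) and against DAM4 (right), with LP as circles and JB as squares. The DAM5 and DAM6 deviations follow each other with r of 0.91, and the DAM4 deviations span a narrower range.

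The table names 3 further members of the family, DAM1, DAM2 and DAM3, which passed the filter at low levels. Of the 6 named DAM genes, 4 were called lower after 1000 h of chilling in LP and 5 in JB, beside 26.9% of tested genes in LP and 31.8% in JB, and 0 were called higher. The list median was -1.48 in LP and -2.15 in JB, against 0 over all tested genes in both. DAM1 had 1.00 ± 0.58 CPM at 1000 h in LP, against 2.49 ± 0.89 CPM at 0 h (SD, n = 3). In JB it had 0.663 ± 0.43 CPM at 1000 h, against 3.04 ± 0.45 CPM at 0 h. Over the first warm day, 4 of the 6 were called lower in LP, beside 31.5% of tested genes, and 0 higher, with a median of -1.95. In JB 2 were called lower, beside 28.6% of tested genes, and 2 higher, beside 32.8%, with a median of -0.50. The risen ones were DAM1 (1.40 ± 0.45, adjusted p = 0.00585) and DAM2 (3.08 ± 0.80, adjusted p = 0.000661). The median over all tested genes was 0 in LP and 0.02 in JB. DAM3 fell on that day in both genotypes, with -2.28 ± 0.39 in LP (adjusted p = 5.72e-07) and -1.48 ± 0.44 in JB (adjusted p = 0.00285). At the start of bloom DAM1 had 4.90 ± 0.20 CPM in LP at 28 d and 4.63 ± 0.38 CPM in JB at 20 d, above its level at 1000 h in both (log2 changes of 2.18 ± 0.33 and 2.83 ± 0.39, adjusted p = 2.57e-08 and 1.07e-09), where 37.8% of tested genes in LP and 37.2% in JB were called higher. DAM2 had 1.67 ± 0.46 CPM then in LP, against 0.200 ± 0.17 CPM at 1000 h. In JB it had 2.93 ± 0.80 CPM, against 0.102 ± 0.098 CPM. In each genotype 2 of the 6 named DAM genes were called higher in this comparison and 3 lower. The share of tested genes called lower is not given here.

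The table also holds 7 gene models, PRUPE_1G531100 to PRUPE_1G531700, whose numbers fall where DAM models are numbered, and which the table does not pair with DAM names. PRUPE_1G531500 and PRUPE_1G531700 passed the filter, and the other 5 had 0 to 71 counts over all 84 libraries. Both were called higher after 1000 h of chilling in LP and in JB, as were 27.4% of tested genes in LP and 29.5% in JB, and 0 of the 6 named DAM genes were, also at an unadjusted p under 0.05. PRUPE_1G531500 had 4.90 ± 1.6 CPM at 1000 h in LP, against 0.322 ± 0.24 CPM at 0 h, and 2.53 ± 0.24 CPM in JB, against 0.197 ± 0.34 CPM (log2 changes of 3.98 ± 0.44 and 3.71 ± 0.59, adjusted p = 1.45e-11 and 2.31e-07). PRUPE_1G531700 had 6.75 ± 0.36 CPM at 1000 h in LP, against 1.18 ± 0.51 CPM at 0 h, and 2.19 ± 0.42 CPM in JB, against 0.435 ± 0.086 CPM. On the first warm day both fell, PRUPE_1G531500 to 0.193 ± 0.10 CPM in LP and to no count in JB, which allows up to 3 counts over the group, and PRUPE_1G531700 to 3.04 ± 0.30 CPM in LP and 0.668 ± 0.11 CPM in JB. Whether these models share sequence with the named genes was not tested.

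Across the 28 group means of log2 CPM the 3 members followed each other, with r of 0.98 between DAM4 and DAM5, 0.95 between DAM4 and DAM6 and 0.98 between DAM5 and DAM6. These points share the change of temperature. Over the 14 chilling groups alone the r were 0.91, 0.86 and 0.98, and over the 14 warm groups 0.83, 0.80 and 0.94. Among 15129 other genes with a mean of at least 5 CPM, the most like DAM4 by Pearson's r over these groups were PRUPE_3G068700 and PRUPE_2G153800, both at 0.97, which also led by Spearman's rho. PRUPE_2G153800 in LP had 130 ± 12 CPM at 0 h, 178 ± 4.0 CPM at 100 h, 188 ± 2.2 CPM at 200 h and 14.3 ± 0.16 CPM at 1 d. In JB it had 101 ± 12 CPM at 0 h, 150 ± 12 CPM at 100 h, 89.8 ± 11 CPM at 200 h and 21.0 ± 3.2 CPM at 1 d. The most like DAM5 were PRUPE_2G213600 (0.97) and PRUPE_6G303600 (0.96), and the most like DAM6 were PRUPE_2G299000 and PRUPE_5G059000 (both 0.96). By Spearman's rho PRUPE_2G151200 came first for both DAM5 and DAM6. The files used here give no names for these identifiers. Of the 15129 genes, 286 had a Pearson's r above 0.9 with DAM4 over the 28 groups, 295 with DAM5 and 119 with DAM6. Such r are therefore not particular to the members or to the genes named here.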

How the data were processed

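The authors deposited raw counts for each gene, as whole numbers that were not normalized. Libraries came from the TruSeq Stranded mRNA kit, per the labels' protocols, and the submitters' processing notes name FastQC 0.11.9, Trimmomatic, STAR 2.6.0 and edgeR. What counted the reads, on which genome build and annotation and with which strand setting, is not given in the sources used here. Genotype, treatment and time in the labels put the 84 libraries into 28 groups.

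Low-count genes were removed by filterByExpr with the groups given, which took 0.028% of reads. After TMM scaling, edgeR 4.0.16 (with limma 3.58.1 and R 4.3.3) fitted all 84 libraries together by glmQLFit, 1 mean to a group, leaving 56 residual degrees of freedom. Tests used glmQLFTest, and p-values were adjusted by Benjamini-Hochberg within each comparison. The common biological coefficient of variation was 7.66%. Rates are least-squares slopes of the fitted group means. Ratios within libraries used an offset of 0.5 counts, and log2 CPM a prior count of 2. The floor of 3 counts covers counting error only. The fits were checked on simulated counts with known changes, drawn at the trend of spread over level. For LP at 1000 h against 0 h, 68.66% of planted 1.5-fold changes were recovered, 92.54% of 2-fold and 100% of 4-fold changes. DAM5 and DAM6 varied more than that trend, so the check does not cover their spread. The chi-square per degree of freedom between replicates ran from 1.39 to 23.3 over 84 pairs.

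The members, the gene lists and the tests were chosen with earlier results of these data known. The rule for named genes took the DAM genes, the gene models PRUPE_1G531100 to PRUPE_1G531700, and the 2 genes most like each member. The comparisons of 20 with 8 d, the differences between LP and JB in the steps to 4 and 8 d, LP at 28 d against JB at 20 d, and the deviations of single libraries were chosen after their values were seen. Promoters, proteins and coordinates were not analysed here. Alternatives were DESeq2 1.42.0, its size factors in the edgeR fit, no filter on low counts, a replicate block, fits restricted to the groups compared, other windows for the rates, linear interpolation, an offset of 2 counts, and leaving out replicate numbers or single libraries.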

Additional observations from a re-analysis of the deposited data

Results flagged for a closer look

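Each value here is a difference between LP and JB in the size of a change over time, LP minus JB, on the log2 scale, and each was picked out because the test of that difference itself passed an adjusted p of 0.05 by edgeR's quasi-likelihood test. Over the first warm day, 1 d against 1000 h, it was -1.33 ± 0.14 for DAM4 (adjusted p = 6.64e-13), -1.92 ± 0.44 for DAM5 (adjusted p = 0.000262) and -1.31 ± 0.35 for DAM6 (adjusted p = 0.0016). At the next step, 4 d against 1 d, DAM4 had -1.16 ± 0.15 (adjusted p = 2.22e-09), and at 20 d against 8 d it had 1.18 ± 0.18 (adjusted p = 7.4e-08). Over 0 to 8 d at 22 °C the slopes differed by -0.28 ± 0.02 per day for DAM4 (adjusted p = 6.32e-20) and -0.16 ± 0.06 per day for DAM6 (adjusted p = 0.036). Over 400 to 1000 h at 4 °C they differed by 0.075 ± 0.020 per 100 h for DAM4 (adjusted p = 0.00567) and 0.17 ± 0.05 per 100 h for DAM5 (adjusted p = 0.0225). Both of these calls were lost without JB 1000 h replicate 1, at 0.056 for PRUPE_DAM4 (adjusted p = 0.0551) and 0.12 for PRUPE_DAM5 (adjusted p = 0.144), and over 600 to 1000 h, and the PRUPE_DAM4 call also over 200 to 1000 h (0.032, adjusted p = 0.0721). The DAM6 call over 0 to 8 d was lost without replicate 1 or 2 of every group or any 1 of 6 libraries.

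Over the whole of chilling, 1000 h against 0 h, the change was less negative in LP by 1.33 ± 0.34 for DAM5 (adjusted p = 0.00161) and 0.82 ± 0.31 for DAM6 (adjusted p = 0.0319), where 17.2% of tested genes were called in that direction. Both rested on single libraries or replicate numbers. Without replicate 1 of every group the PRUPE_DAM5 difference was 0.36 (adjusted p = 0.609) and the PRUPE_DAM6 difference was -0.03. The PRUPE_DAM6 call was also lost without any 1 of 6 libraries, LP 0 h replicate 1 or 3, LP 1000 h replicate 1, JB 0 h replicate 1 or 2, or JB 1000 h replicate 1 (0.53 to 0.78, adjusted p from 0.0659 to 0.221), with DESeq2 (0.79, adjusted p = 0.122) and in a fit of only the groups compared (0.80, adjusted p = 0.0784). The changes of the 2 genotypes share no sample. However, the differences over chilling and over the first warm day both use the 1000 h libraries, so they are not separate results.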

How the results depend on the processing

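Of 42 tested results that answer a comparison, 28 kept their call and direction in all alternatives run, among them the more negative change of all 3 members in LP over the first warm day. Where a result changed, the cause was not tested. Differences near 0 turned sign for PRUPE_DAM4 in LP at 400 h against 0 h (-0.017 with DESeq2 and with its size factors, -0.0056 in a fit of only the groups compared) and for PRUPE_DAM6, LP minus JB at 200 h (-0.015, -0.010 and -0.010). The fit of only the groups compared called PRUPE_DAM6 in JB over the first warm day (-0.52), and it and DESeq2 called the warm mean of PRUPE_DAM5 (-0.63 and -0.67) but not the PRUPE_DAM6 difference in change over chilling (0.80 and 0.79). Fitted over 600 to 1000 h, slopes per 100 h lost their call for PRUPE_DAM5 (-0.088) and PRUPE_DAM6 (-0.11) in LP, for PRUPE_DAM6 in JB (-0.14), and for the slope differences of PRUPE_DAM4 (0.040) and PRUPE_DAM5 (0.16). Over 200 to 1000 h the slope difference of PRUPE_DAM4 lost its call (0.032) and that of PRUPE_DAM6 gained one (0.11), and over 0 to 4 d that of PRUPE_DAM5 gained one (-0.43 per day).

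Leaving out replicate numbers or single libraries gave these ranges, and fits without a single library kept the dispersions of the full fit. Times to 50% of the highest mean were 616 to 653 h (LP) and 608 to 629 h (JB) for PRUPE_DAM4, 380 to 466 h and 345 to 455 h for PRUPE_DAM5, and 322 to 568 h and 327 to 442 h for PRUPE_DAM6, and the highest mean moved between 100 and 200 h for PRUPE_DAM4 in JB and between 0 and 100 h for PRUPE_DAM5 in LP. The first-day change in JB ran from -0.85 to -0.27 for PRUPE_DAM5 and from -0.79 to -0.28 for PRUPE_DAM6. The slope of PRUPE_DAM6 in LP ran from -0.18 to -0.10 per 100 h. The change of the DAM5 to DAM4 log2 ratio ran from -0.95 to -0.67 and that of DAM5 to DAM6 from -0.61 to -0.51. Differences between LP and JB in a change ran from 0.041 to 0.35 (PRUPE_DAM4), 0.36 to 2.12 (PRUPE_DAM5) and -0.026 to 1.38 (PRUPE_DAM6) over chilling, from 0.052 to 0.088 (PRUPE_DAM4) and 0.11 to 0.22 (PRUPE_DAM5) per 100 h, from -0.23 to -0.048 per day (PRUPE_DAM6), from -0.88 to 0.16 at 4 d against 1 d (PRUPE_DAM5), from -0.083 to 0.13 at 8 d against 4 d (PRUPE_DAM4) and from -0.90 to 0.27 at 20 d against 8 d (PRUPE_DAM6). Uncalled values that turned sign were PRUPE_DAM5 in JB at 20 d against 8 d (-0.74 to 0.41), PRUPE_DAM5 in LP at 100 h (-0.27 to 0.22) and 200 h (-0.45 to 0.12) and PRUPE_DAM4 in LP at 400 h (-0.027 to 0.049) against 0 h, and LP minus JB for PRUPE_DAM5 at 0 h (-0.38 to 0.47), 400 h (-0.059 to 0.34) and 16 d (-0.34 to 0.51) and PRUPE_DAM6 at 0 h (-0.16 to 0.37), 100 h (-0.055 to 0.25), 200 h (-0.23 to 0.20) and 20 d (-1.86 to 0.033).

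Counts of called genes moved by more than 1.5 times only without replicate 1 or 2 of every group, to 2656 and 2419 (4497 with all libraries) for the LP slope at 4 °C, 4730 and 5033 (7638) for the JB slope, and, for differences in change, 2987 and 3827 (6716) over chilling, 1394 and 1695 (3811) per 100 h and 4025 and 4275 (6765) per day. Replicate numbers did not pair the samples: in 0 of 17 comparisons did all same-numbered deviations correlate above 0.1 (-0.167 to 0.122), and in 1 of 17 did every sample correlate best with its own number. With the replicate number as a block 132 of 135 values kept their call, 1 gained one (PRUPE_DAM5 in JB, 100 h against 0 h, -0.46, adjusted p = 0.0476) and 2 lost it (PRUPE_DAM6, JB 16 d against 12 d, -1.34, adjusted p = 0.057, and LP 8 d against 4 d, -1.14, adjusted p = 0.0557). Depth limits DAM5 and DAM6 from 8 d on, where libraries hold at most 81 counts.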

Other observations

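Among 14582 genes in the 42 chilling libraries, 273 had deviations from the group mean that correlated above 0.7 with the mean deviation of DAM5 and DAM6, and 216 had deviations that correlated below -0.7 with it. The highest r were those of PRUPE_6G319400 (0.92) and PRUPE_1G039400 (0.91), which were named after their values were seen and which the files used here do not pair with gene names. The mean DAM5 and DAM6 deviation correlated with that of DAM4 at 0.47. These points share the library and its depth, and the r are descriptions.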
